A study of Mus musculus with 18 samples.

Results

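The genes of the platelet-derived growth factor (PDGF) ligands, Pdgfa, Pdgfb, Pdgfc and Pdgfd, and of their receptors, Pdgfra and Pdgfrb, were followed in primary mouse embryonic fibroblasts. They are 6 of the 18194 genes with a probe set of their own on the Affymetrix array. They were chosen by symbol, with earlier results of these data known. A probe set is a group of short probes for a gene that together give 1 value per array, and the 6 genes had 14 of the 45101 probe sets. Each gene is described by the probe set with the highest mean of the 18 arrays, and its other probe sets are given beside it. All 6 genes were among the 13679 genes bright enough to be tested. Of the 14 probe sets 13 passed that filter, and the dimmest set of Pdgfd did not.

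PDGFs are secreted dimers that act on mesenchymal cells and are known as mitogens and attractants of fibroblasts, pericytes and smooth muscle cells. PDGF-A and PDGF-C chains bind the receptor PDGFRα, PDGF-B binds both receptors, and PDGF-D acts mainly through PDGFRβ. The C and D chains are secreted as latent factors that proteases must cut. Both receptors are receptor tyrosine kinases that signal through phosphoinositide 3-kinase, phospholipase C and the Ras and MAP kinase cascade, and embryonic fibroblasts carry both.

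The cells were isolated from embryos of 14 days without head and liver. They came from 3 wild-type embryos and 3 embryos labelled knock-out of Nfic, which encodes the transcription factor nuclear factor I-C, and which stretch of that gene was deleted is not in the labels. All cultures were first moved for some hours to medium with albumin, insulin, transferrin and selenium. Cells of each embryo were then left untreated or given 12.5 ng/ml of the growth factor TGF-β1 for 1 h or 10 h, which gave 6 groups of 3 arrays and 18 arrays in all. The 3 arrays of a group are therefore 3 embryos, and each embryo gave 1 array in each of the 3 conditions. The untreated arrays serve as controls for both times. Untreated cells kept for the same 10 h were not analysed here, so a 10 h change sets TGF-β1 and the further time in culture together against untreated cells.

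The arrays of a group correlated at 0.987 to 0.995 over all probe sets. Nfic itself did not pass the test between the genotypes with any of its 5 probe sets. Its brightest set averaged 10.45 in untreated wild-type and 10.35 in untreated labelled knock-out cells on the log2 scale, a difference of -0.10 ± 0.16 (SE, limma adjusted p = 1.00). Of the other 4 sets, differences in untreated cells ran from -0.42 (6.54 against 6.13) to 0.03. Where the probes lie relative to the deletion was not examined here, so this value does not check the labels. All 14 fibroblast markers lay above the filter level, among them the collagen gene Col1a1 at 13.61 to 14.03. Of the markers of other cell types, 7 of 11 endothelial, 6 of 10 epithelial and 6 of 9 neural and glial markers passed the filter too. Their list means per array were 4.34 to 4.66 (endothelial), 4.32 to 4.97 (epithelial) and 5.05 to 5.50 (neural and glial). The endothelial marker Pecam1 and the oligodendrocyte lineage marker Olig2 were above the filter level on 0 arrays and the epithelial marker Cdh1 on 2, while the endothelial marker Egfl7 (6.28 to 7.15), the epithelial marker Epcam (5.89 to 6.46) and the neural crest marker Sox10 (5.47 to 6.06) were above it on all 18. Markers of macrophages and other blood cells were present on all arrays and were highest in embryo 1 of each genotype, as given below beside Pdgfb.

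At 10 h of TGF-β1 the genes of 3 ligands were higher and the gene of 1 receptor was lower than in untreated cells of the same genotype. Pdgfa rose 2.96-fold in wild-type and 3.14-fold in labelled knock-out cells, Pdgfc rose 2.58-fold and 2.56-fold, and Pdgfb rose 3.45-fold and 5.83-fold. The last value rests on 1 array, and without it the rise of Pdgfb in labelled knock-out cells was 3.16-fold. Pdgfra, the gene of PDGFRα, fell 5.57-fold and 5.94-fold. Pdgfd fell 1.43-fold and 1.48-fold by its brightest probe set. Pdgfrb, the gene of PDGFRβ, did not pass the test in either genotype. In all, 5 of the 6 genes passed at 10 h in wild-type cells, where 33.7% of all tested genes did, and 5 of 6 in labelled knock-out cells, where 34.7% did. The test was limma, with Benjamini-Hochberg adjusted p-values over the 13679 genes and a threshold of 0.05. Taken by direction, 14.9% of tested genes rose and 18.8% fell in wild-type cells, and 13.9% rose and 20.7% fell in labelled knock-out cells. In bulk RNA, fewer cells that carry a transcript and less transcript per cell cannot be told apart.

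**Figure D1:**
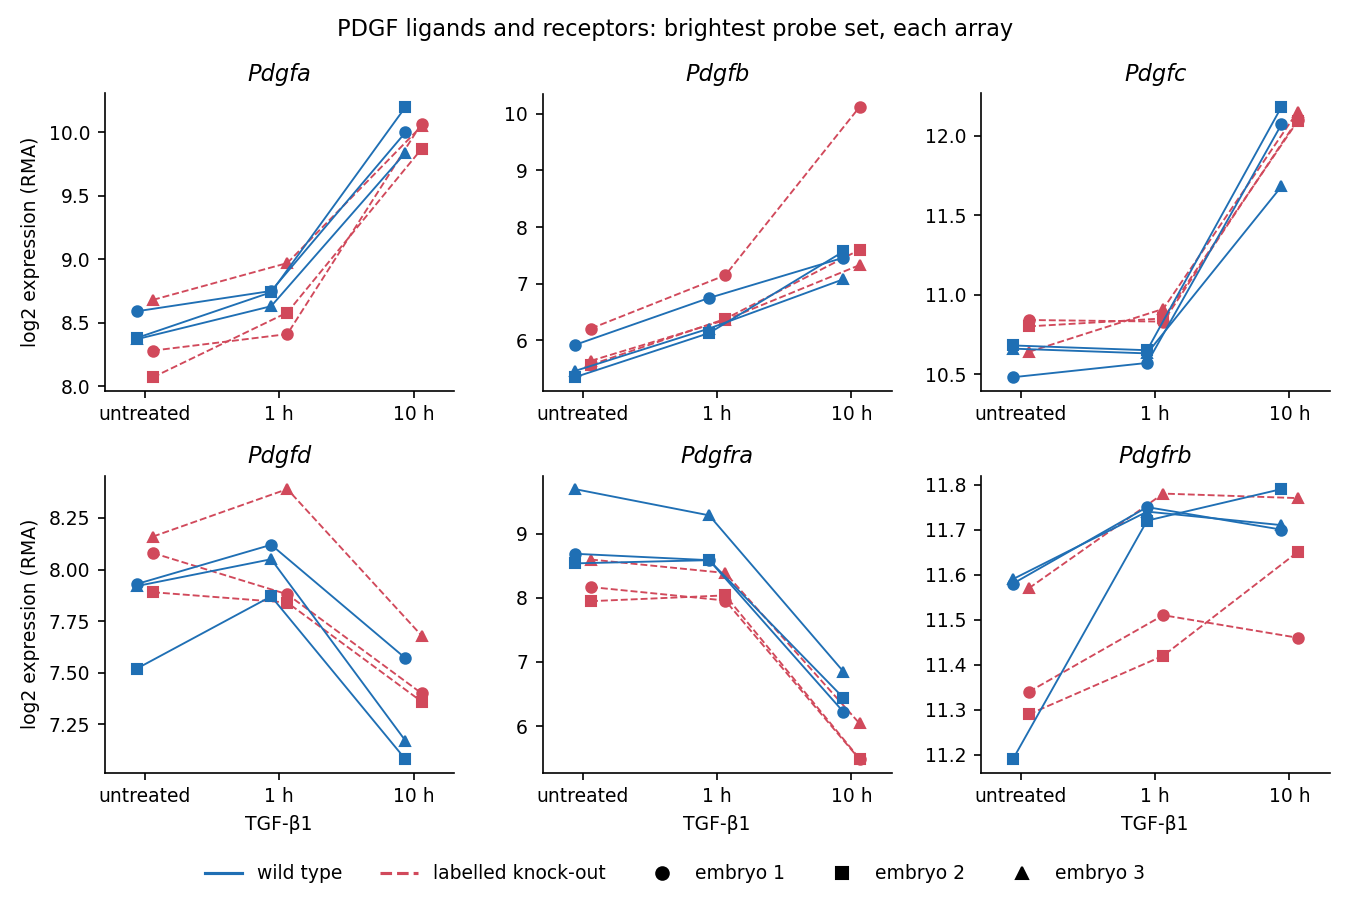
Log2 expression of the brightest probe set of each gene (vertical axis, its own range in each panel) in untreated cells and after 1 h and 10 h of TGF-β1 (horizontal axis), with 1 point per array. Lines join the arrays of an embryo, blue and solid for wild type, red and dashed for labelled knock-out, and marker shapes give the embryo. Pdgfra falls on every line between 1 h and 10 h, and the 10 h point of labelled knock-out embryo 1 stands at 10.12 in the Pdgfb panel.

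The sequence before the gene start is shown for the ligand genes Pdgfa and Pdgfc, which rose, and the receptor gene Pdgfra, which fell, so that opposite responses can be seen beside their promoters. The 250 bases before the RefSeq start on build GRCm38.p6 were taken for the 4 of 6 genes that matched the promoter table, which were Pdgfa, Pdgfc, Pdgfd and Pdgfra. They are written 5′ to 3′ on the strand of the gene, with matches to the searched motifs in capitals. Pdgfa lies at chr5:138994945-138995194 on the minus strand, Pdgfc at chr3:81036166-81036415 on the plus strand and Pdgfra at chr5:75152001-75152250 on the plus strand.
Pdgfa: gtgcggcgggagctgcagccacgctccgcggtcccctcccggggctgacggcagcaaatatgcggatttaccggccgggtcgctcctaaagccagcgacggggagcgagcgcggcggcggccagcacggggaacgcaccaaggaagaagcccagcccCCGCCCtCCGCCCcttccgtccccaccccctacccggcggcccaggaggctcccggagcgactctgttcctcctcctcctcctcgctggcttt
Pdgfc: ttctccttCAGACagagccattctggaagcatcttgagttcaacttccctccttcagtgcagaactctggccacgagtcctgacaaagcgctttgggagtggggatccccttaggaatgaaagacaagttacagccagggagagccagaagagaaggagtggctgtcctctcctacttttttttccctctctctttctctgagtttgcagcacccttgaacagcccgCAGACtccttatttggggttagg
Pdgfra: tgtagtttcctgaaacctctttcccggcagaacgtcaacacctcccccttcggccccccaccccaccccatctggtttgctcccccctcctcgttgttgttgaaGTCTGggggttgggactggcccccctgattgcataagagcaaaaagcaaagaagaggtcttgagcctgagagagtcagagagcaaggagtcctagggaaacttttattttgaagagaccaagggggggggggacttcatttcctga

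The motifs were searched on both strands, and a match is a run of letters, not a site shown to be bound. The SMAD element CAGAC, named for the factors that carry the TGF-β signal, occurred 2 times before Pdgfc and 1 time before Pdgfra, and 42.2% of all 32851 promoters of this length hold it. The stretch before Pdgfa holds no such match and 2 matches to the Sp1 letters GGGCGG, which 32.7% of promoters hold. GC content was 72.4% before Pdgfa, 50.8% before Pdgfc and 54.4% before Pdgfra, against a median of 52.4% over all promoters. The promoter of Pdgfd at chr9:6168236-6168485, plus strand, holds 2 SMAD letter matches and the only match to the nuclear factor I element TTGGC, which 41.5% of promoters hold. No stretch held the full nuclear factor I palindrome, TTGGC and GCCAA with 5 bases between them (0.0365% of promoters), the AP-1 letters TGANTCA (6.75%) or the Egr letters GCGNGGGCG (4.7%). TTGGC is contained in that palindrome. A further start listed for Pdgfa lies inside the gene and is not shown.

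Pdgfa encodes the A chain, the classical ligand of PDGFRα. Its values in wild-type embryos 1, 2 and 3 were 8.59, 8.38 and 8.37 untreated, 8.75, 8.74 and 8.63 at 1 h, and 10.00, 10.20 and 9.84 at 10 h. In labelled knock-out embryos they were 8.28, 8.07 and 8.68 untreated, 8.41, 8.58 and 8.97 at 1 h, and 10.07, 9.87 and 10.05 at 10 h. Each of the 6 arrays at 10 h lay above the other 12 arrays, and the genotypes overlapped in each condition. Pdgfa was higher at 10 h in 6 of 6 embryos, as were 19.3% of tested genes. The share of all genes whose 10 h arrays stand apart is not given here, for Pdgfa or for the genes below. The 10 h change was 1.57 ± 0.16 on the log2 scale (SE, n = 3 embryos per group, limma adjusted p = 2.1e-06) in wild-type and 1.65 ± 0.16 (adjusted p = 1.1e-06) in labelled knock-out cells. Within single embryos it ran from 1.36 to 1.82. The dimmer probe set of Pdgfa rose by 1.15 and 1.43.

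Pdgfc encodes the C chain, a latent ligand of PDGFRα that tissue plasminogen activator can cut. Wild-type embryos 1, 2 and 3 gave 10.48, 10.68 and 10.66 untreated, 10.57, 10.65 and 10.63 at 1 h, and 12.07, 12.18 and 11.68 at 10 h. Labelled knock-out embryos gave 10.84, 10.80 and 10.64 untreated, 10.83, 10.85 and 10.91 at 1 h, and 12.10, 12.09 and 12.15 at 10 h. The 10 h arrays stood apart from all others here too, and the 1 h arrays of wild-type cells lay within the range of the untreated ones. Pdgfc changed by 1.37 ± 0.11 in wild-type cells and 1.36 ± 0.11 in labelled knock-out cells at 10 h (log2, SE, limma adjusted p = 2.2e-07 in each). Its other probe set changed by 1.28 and 1.23.

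Pdgfb encodes the B chain, which binds both receptors and is best known from endothelial cells, platelets and macrophages. In wild-type embryos 1, 2 and 3 it stood at 5.92, 5.35 and 5.46 untreated, 6.75, 6.13 and 6.21 at 1 h, and 7.46, 7.57 and 7.08 at 10 h. In labelled knock-out embryos it stood at 6.21, 5.57 and 5.64 untreated, 7.15, 6.38 and 6.36 at 1 h, and 10.12, 7.60 and 7.33 at 10 h. The 3 conditions did not overlap within either genotype, and 1 array, labelled knock-out embryo 1 at 10 h, lay far above the rest. The 10 h change was 1.79 ± 0.51 in wild-type cells (log2, SE, limma adjusted p = 0.0124) and 2.54 ± 0.51 in labelled knock-out cells (adjusted p = 0.00105). The fit estimates 1 spread per gene from all 6 groups, that array included. Without that array, a choice made after its value was seen, the changes were 1.79 ± 0.24 (adjusted p = 5.5e-05) in wild-type cells and 1.66 ± 0.27 (adjusted p = 3.3e-04) in labelled knock-out cells. With that array kept, the wild-type call was lost without wild-type embryo 1, 2 or 3 (adjusted p = 0.0516, 0.112 and 0.0631). The changes were then 1.91 ± 0.66, 1.57 ± 0.68 and 1.88 ± 0.68. The dimmer Pdgfb set changed by 0.99 (adjusted p = 0.126) in wild-type and 1.59 (adjusted p = 0.0170) in labelled knock-out cells, and embryo 1 of the labelled knock-out was again highest at 10 h, at 7.72 against 5.82 and 4.89.

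On that array Pdgfb lay 2.65 above the mean of the other 2 labelled knock-out arrays at 10 h, the 33rd largest excess among 13679 genes, and 212 genes lay more than 1 above and 58 more than 1 below. Other arrays were as far from their group by such counts: in wild-type embryo 1 at 10 h 210 genes lay above, and in wild-type embryo 2 at 10 h 304 lay below. The 3 genes with the largest excess on the array of labelled knock-out embryo 1, named after their values were seen, were the chemokine gene Ccl3 at 7.62, the acute-phase gene Saa3 at 5.81 and the itaconate-synthesis gene Acod1 at 5.50. The mean of 15 macrophage and haematopoietic markers was 9.50 on that array against 7.80 and 8.32 on the other 2. It was already 9.81 in untreated cells of the same embryo against 8.04 and 8.48, and its Pdgfb value was then 6.21 against 5.57 and 5.64. Wild-type embryo 1 had more of these markers still, 10.15 at 10 h against 8.24 and 8.78, and its Pdgfb value of 7.46 lay between those of the other 2 wild-type embryos. Untreated, wild-type embryo 1 had the highest Pdgfb value of its genotype, 5.92 against 5.35 and 5.46. At 1 h embryo 1 was highest in both genotypes. Its values were 6.75 against 6.13 and 6.21 in wild-type and 7.15 against 6.38 and 6.36 in labelled knock-out cells. Of the 15 macrophage markers 14 did not pass the test at 10 h in wild-type cells, the mannose receptor gene Mrc1 fell, and none of 15 passed in labelled knock-out cells. Mrc1 changed by -2.15 and -1.54 with an SE of 0.79, so a marker can change without passing. The list mean was lower at 10 h than untreated in every embryo. In wild-type embryos 1, 2 and 3 it was 10.51, 8.94 and 8.85 untreated and 10.15, 8.24 and 8.78 at 10 h. The part of these cells in the Pdgfb values was not tested.

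**Figure D2:**
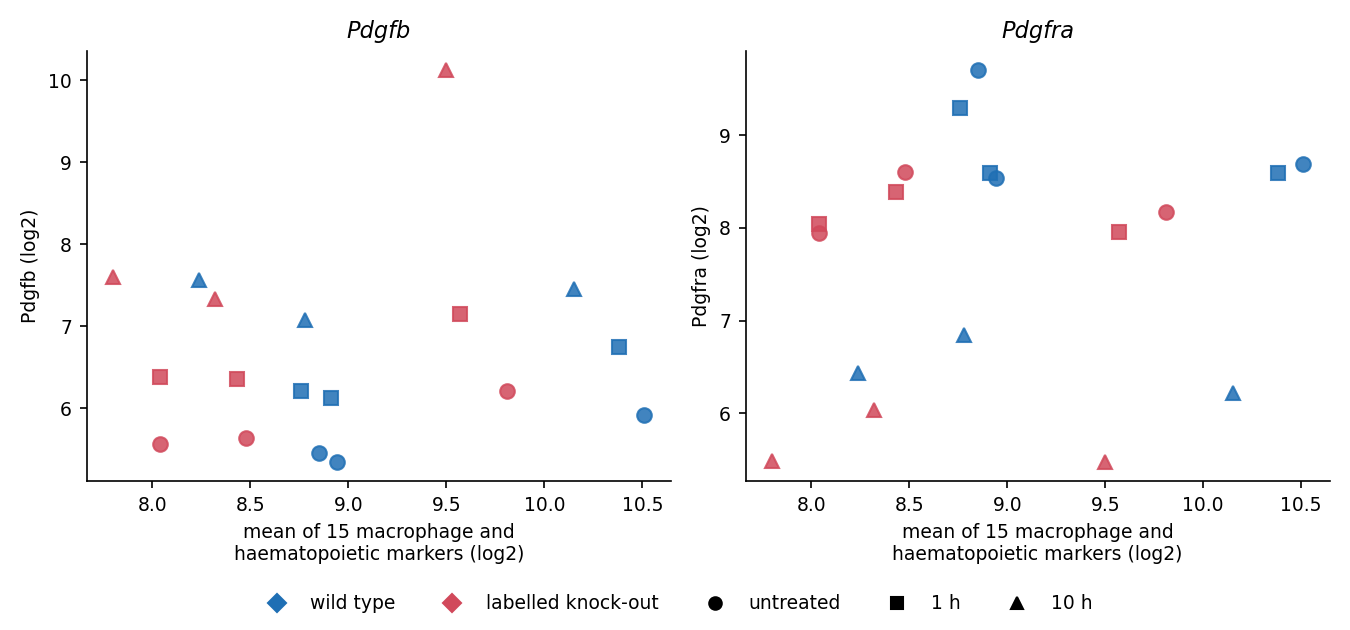
Log2 expression of Pdgfb (left) and Pdgfra (right) on each array against the mean log2 expression of 15 macrophage and haematopoietic markers on the same array. Colour gives the genotype and shape the condition. In the left panel the labelled knock-out embryo 1 array at 10 h stands at 10.12 with a marker mean of 9.50. Wild-type embryo 1 at 10 h has a marker mean of 10.15 and a Pdgfb value of 7.46. In untreated cells and at 1 h, embryo 1 has the highest Pdgfb value in each genotype.

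Pdgfd encodes the D chain, a latent ligand of PDGFRβ. Its brightest probe set read 7.93, 7.52 and 7.92 in untreated wild-type embryos 1, 2 and 3, 8.12, 7.87 and 8.05 at 1 h, and 7.57, 7.08 and 7.17 at 10 h. In labelled knock-out embryos it read 8.08, 7.89 and 8.16 untreated, 7.88, 7.84 and 8.39 at 1 h, and 7.40, 7.36 and 7.68 at 10 h. The value fell in 6 of 6 embryos, by 0.36 to 0.75, but in wild-type cells the highest 10 h array lay just above the lowest untreated one. The change was -0.52 ± 0.17 (log2, SE, limma adjusted p = 0.0246) in wild-type and -0.56 ± 0.17 (adjusted p = 0.0146) in labelled knock-out cells. The probe sets of this gene disagreed: the second set changed by -0.24 (adjusted p = 0.542) and -0.04 (adjusted p = 0.933), and the dimmest was never above the filter level. With the mean of all probe sets the changes were -0.19 (adjusted p = 0.208) and -0.25 (adjusted p = 0.0957). The call was also lost without wild-type embryo 3 (-0.40, adjusted p = 0.206) and without labelled knock-out embryo 1 (-0.51, adjusted p = 0.115).

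Pdgfra encodes the receptor that marks mesenchymal progenitors and fibroblasts and that binds the A, B and C chains. Wild-type embryos 1, 2 and 3 gave 8.69, 8.54 and 9.70 untreated, 8.59, 8.59 and 9.29 at 1 h, and 6.22, 6.44 and 6.85 at 10 h. Labelled knock-out embryos gave 8.17, 7.95 and 8.60 untreated, 7.96, 8.04 and 8.39 at 1 h, and 5.48, 5.49 and 6.04 at 10 h. Every 10 h array lay more than 1 log2 unit below every array of the other conditions. The change at 10 h was -2.48 ± 0.29 in wild-type (log2, SE, limma adjusted p = 9.9e-06) and -2.57 ± 0.29 in labelled knock-out cells (adjusted p = 6.2e-06), and it lay between -2.10 and -2.85 in single embryos. The size depended on the probe set. The second set changed by -1.11 (adjusted p = 0.00618) in wild-type and -0.72 (adjusted p = 0.0578) in labelled knock-out cells, and the dimmest by -0.68 (adjusted p = 0.00438) and -0.46 (adjusted p = 0.0399). All 3 sets were lower at 10 h in 6 of 6 embryos, as were 24.6% of tested genes by their brightest set, and with their mean the changes were -1.42 and -1.25.

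Pdgfrb encodes the receptor known from pericytes and vascular smooth muscle. Its wild-type values were 11.58, 11.19 and 11.59 untreated, 11.75, 11.72 and 11.74 at 1 h, and 11.70, 11.79 and 11.71 at 10 h. The labelled knock-out values were 11.34, 11.29 and 11.57 untreated, 11.51, 11.42 and 11.78 at 1 h, and 11.46, 11.65 and 11.77 at 10 h. These 18 arrays lay within 0.60 log2 units of each other, the narrowest range of the brightest sets of the 6 genes, and the groups overlapped in labelled knock-out cells. The 10 h difference was 0.28 ± 0.12 in wild-type cells (log2, SE, limma adjusted p = 0.0909) and 0.22 ± 0.12 in labelled knock-out cells (adjusted p = 0.181). It was positive in 6 of 6 embryos, as it was for 19.3% of all tested genes. In wild-type cells it passed with embryo as a fixed block (adjusted p = 0.0413) but not as a random one (adjusted p = 0.0502), and it passed with the mean of both probe sets (0.26, adjusted p = 0.0317).

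**Figure D3:**
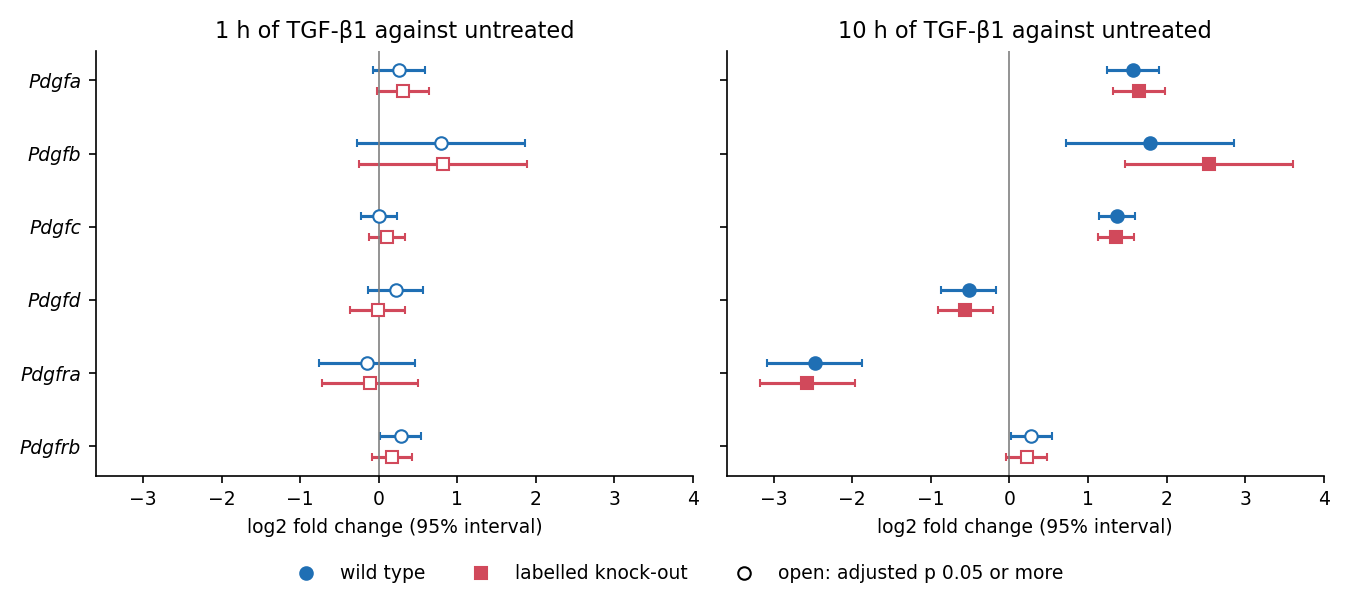
Log2 fold change of each gene (horizontal axis) after 1 h (left) and 10 h (right) of TGF-β1 against untreated cells, with the 95% confidence interval of the limma fit as a bar. Circles are wild type, squares labelled knock-out, and open symbols did not pass. At 1 h all 12 symbols are open. At 10 h Pdgfa, Pdgfb and Pdgfc lie to the right, Pdgfd and Pdgfra to the left, and the Pdgfrb symbols are open.

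At 1 h none of the 6 genes passed the limma test in wild-type cells, where 0.585% of all tested genes did, or in labelled knock-out cells, where 0.490% did. At an unadjusted p under 0.05, 940 of all genes stood out in wild-type cells and 512 in labelled knock-out cells. Pdgfb had the largest value of the 6: it was 0.79 ± 0.51 higher in wild-type (log2, SE, adjusted p = 0.891) and 0.82 ± 0.51 in labelled knock-out cells (adjusted p = 1.00). By its brightest set it was higher in 6 of 6 embryos, by 0.72 to 0.94, and treated and untreated arrays did not overlap in either genotype. All treated arrays lay above all untreated ones for 7.68% of tested genes in wild-type cells and 3.87% in labelled knock-out cells, and 5.20% of genes were higher in 6 of 6 embryos. Without the array that stands apart the SE was 0.24 and the adjusted p 0.325 and 0.345. Pdgfa (0.26 and 0.31) and Pdgfrb (0.28 and 0.17) were also higher in 6 of 6 embryos and did not pass.

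Between 1 h and 10 h, 4 of 6 genes passed in wild-type cells, where 33.3% of all tested genes did, and 5 of 6 in labelled knock-out cells, where 33.4% did. Pdgfa rose by 1.31 and 1.34 and Pdgfc by 1.36 and 1.25 on the log2 scale, while Pdgfra changed by -2.32 and -2.46. Pdgfd changed by -0.74 and -0.56, and its call in labelled knock-out cells was lost without embryo 1 (adjusted p = 0.0684), without embryo 3 (adjusted p = 0.0660) and without the array that stands apart (adjusted p = 0.0545). Pdgfb was 1.00 higher at 10 h than at 1 h in wild-type cells (limma adjusted p = 0.145) and 1.72 higher in labelled knock-out cells (adjusted p = 0.0155). The wild-type Pdgfb difference passed without the array that stands apart (adjusted p = 0.00515) and with embryo as a fixed block (adjusted p = 0.0292), but not with embryo as a random block (adjusted p = 0.0779). The labelled knock-out value was 0.84 without that array (adjusted p = 0.0321). Pdgfrb differed by 0.00 and 0.06, with 95% intervals from -0.26 to 0.26 and from -0.21 to 0.32.

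**Figure D4:**
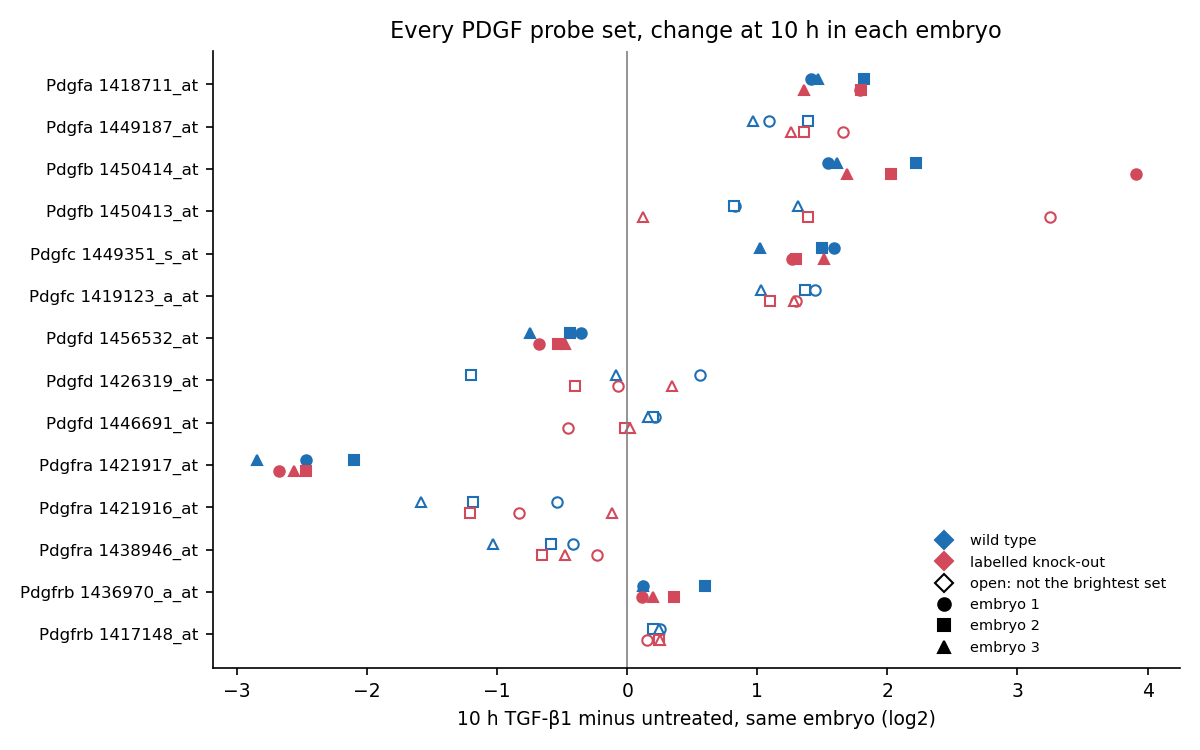
Change on the log2 scale from untreated to 10 h of TGF-β1 in each embryo (horizontal axis) for all 14 probe sets of the 6 genes. Filled symbols are the brightest set of a gene and open symbols its other sets, colour gives the genotype and shape the embryo. The 3 Pdgfra sets all lie left of 0 and differ in size, while the dimmer Pdgfd sets scatter around 0.

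Counted by probe set, 9 of the 13 sets that passed the filter passed the test at 10 h in wild-type cells and 9 of 13 in labelled knock-out cells, and 0 of 13 did at 1 h in either genotype. Of all 29020 sets tested, 25.1% and 25.5% passed at 10 h and 0.462% and 0.389% at 1 h in wild-type and labelled knock-out cells. At 10 h both sets of Pdgfa and Pdgfc passed in both genotypes. Both Pdgfrb sets were higher without passing, the second by 0.23 (limma adjusted p = 0.0581) in wild-type and 0.21 (adjusted p = 0.0810) in labelled knock-out cells.

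Labelled knock-out and wild-type cells were compared within each condition, and none of the 6 genes passed in any of these comparisons, nor did any other gene of the 13679. By limma, 460 genes had an unadjusted p under 0.05 before treatment, 846 did at 1 h and 721 did at 10 h. Pdgfra had the largest difference of the 6 in untreated cells and at 1 h. It was -0.74 ± 0.29 in untreated cells (log2, labelled knock-out minus wild type, SE, limma adjusted p = 1.00), -0.69 ± 0.29 at 1 h (adjusted p = 0.780) and -0.83 ± 0.29 at 10 h (adjusted p = 0.878). The genotypes overlapped narrowly in untreated cells, where labelled knock-out embryo 3 at 8.60 lay above wild-type embryo 2 at 8.54. By this brightest set they did not overlap at 1 h or 10 h. The second Pdgfra set overlapped between the genotypes at 1 h and 10 h, and the dimmest at 10 h. Their differences at 10 h were -0.19 and -0.09. All labelled knock-out arrays lay below all wild-type arrays for 6.11% of tested genes at 1 h and 4.96% at 10 h. Pdgfc was 0.25 higher in labelled knock-out cells at 1 h (limma adjusted p = 0.785), where the genotypes overlapped by neither of its sets. Its second set stood apart in untreated cells too. Dimmer sets of Pdgfb, Pdgfd and Pdgfrb also stood apart in some conditions, in either direction. The share of genes that stand apart upward is not given here.

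Averaged over the 3 conditions, Pdgfra was 7.83, 7.86 and 8.61 in wild-type embryos and 7.20, 7.16 and 7.68 in labelled knock-out embryos. By the brightest set the embryo means of the genotypes therefore did not overlap, as was the case in this direction for 5.15% of tested genes. Their difference was -0.75 ± 0.23 (log2, SE, limma adjusted p = 0.933), and the two-sided exact permutation test gave p = 0.1, the smallest that 3 embryos against 3 allow. The dimmer Pdgfra sets differed by -0.35 and -0.28. For the second set labelled knock-out embryo 2, at 6.23, lay above wild-type embryo 1, at 6.14. For the dimmest set wild-type embryo 1 and labelled knock-out embryo 3 were both at 4.6. Pdgfc was 0.18 higher in labelled knock-out embryo means, also with an exact permutation p of 0.1, and the other 4 genes gave exact p from 0.4 to 0.8. The exact p values are those of the brightest sets. The second Pdgfd set was 0.46 higher and did not pass. Its embryo means did not overlap, at 5.92, 5.99 and 5.72 against 5.41, 5.21 and 5.64 in wild type. The share of genes that stand apart in this upward direction is not given here. Pdgfb was 0.49 higher in labelled knock-out embryo means, which were 7.82, 6.51 and 6.45 in embryos 1, 2 and 3 against 6.71, 6.35 and 6.25 in wild type. Without labelled knock-out embryo 1 that difference was 0.04. At 10 h the Pdgfb difference was 0.98 (limma adjusted p = 0.925), and 0.10 without the array that stands apart (adjusted p = 0.965).

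Macrophage and haematopoietic markers were also at lower values in labelled knock-out cells, and none of the 15 passed. Their median difference was -0.73 in untreated cells, where all 15 lay between -0.92 and -0.33, -0.69 at 1 h, -0.60 at 10 h and -0.61 in embryo means. The array means of the list overlapped between the genotypes, from 8.85 to 10.51 in untreated wild-type and from 8.04 to 9.81 in untreated labelled knock-out cells. The list of fibroblast markers had a median difference of -0.19, -0.07 and -0.06 in the same 3 conditions. The part of either in the Pdgfra difference was not tested.

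The 10 h responses of the genotypes were compared by the interaction term of the limma fit, and none of the 6 genes passed, nor any other gene (305 of all genes had an unadjusted p under 0.05). The response of Pdgfra differed by -0.09, with a 95% interval from -0.96 to 0.77, and that of Pdgfc by -0.01, from -0.33 to 0.32. Pdgfa differed by 0.09 (-0.38 to 0.55), Pdgfd by -0.05 (-0.55 to 0.45) and Pdgfrb by -0.06 (-0.43 to 0.31). The interval of Pdgfb, 0.75 with bounds of -0.77 and 2.27, was the widest, and without the array that stands apart its value was -0.13. These intervals come from the fit without pairing. With embryo as a fixed block they ran from -0.46 to 0.27 for Pdgfra, -0.34 to 0.32 for Pdgfc, -0.27 to 0.44 for Pdgfa, -0.35 to 0.26 for Pdgfd, -0.37 to 0.25 for Pdgfrb and -0.26 to 1.77 for Pdgfb, and again none passed.

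The order of the 6 groups differed among the genes. For Pdgfra wild-type untreated cells were highest (8.98 ± 0.63, SD, n = 3), followed by wild type at 1 h (8.83 ± 0.41), labelled knock-out untreated (8.24 ± 0.33) and at 1 h (8.13 ± 0.23), wild type at 10 h (6.50 ± 0.32) and labelled knock-out at 10 h (5.67 ± 0.32). The first 4 groups overlapped with their neighbours in that order, and the last 2 overlapped with none. For Pdgfa and Pdgfc the 10 h groups of both genotypes overlapped with each other at the top, at 10.01 ± 0.18 and 10.00 ± 0.11 for Pdgfa and 11.98 ± 0.26 and 12.12 ± 0.03 for Pdgfc in wild-type and labelled knock-out cells. They were separated from the other 4 groups, which overlapped with their neighbours. For Pdgfb the order followed time, with labelled knock-out above wild-type cells in each condition, and every group overlapped with its neighbour. Every neighbouring pair overlapped for Pdgfd and Pdgfrb as well.

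Across the 18 arrays the ligand genes Pdgfa and Pdgfc followed each other (Pearson r = 0.940), and Pdgfc and Pdgfra ran opposite (r = -0.946). These values describe the arrays, which share embryos and conditions, and carry no test. With the group means taken away, r was 0.095 for Pdgfa and Pdgfc and -0.185 for Pdgfc and Pdgfra, so the arrays of a group did not repeat that pattern. Within groups the closest pairs were Pdgfd with Pdgfrb at 0.715 and Pdgfra with Pdgfrb at 0.612. The 3 genes whose 18 values were most like those of Pdgfa were Rnf149 (r = 0.985), Uhrf1bp1l (0.980) and Fgf21 (0.976). For Pdgfc they were Ldlrad4 (0.987), Itga5 (0.985) and Pdrg1 (0.982), and for Pdgfra Zfp521 (0.967), Eif3e (0.963) and Sirt5 (0.961). Pdgfb was most like Tnfaip3 (0.960), Errfi1 (0.934) and Gch1 (0.908), and Pdgfd most like Lrch2 (0.941), Pdk4 (0.937) and Tshz2 (0.931). The r values of Pdgfb include the 10 h array of labelled knock-out embryo 1, which stands apart, and r without it is not given here. The closest genes of Pdgfrb, Morc4 (0.859), Peli1 (0.817) and Vasn (0.810), followed it less tightly.

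Genes that act before the receptors were taken from a list of 12 proteases and binding proteins of PDGF ligands. Of 11 tested, 3 rose and 2 fell at 10 h in wild-type and likewise in labelled knock-out cells. This is 45.5% of the list in each, against 33.7% and 34.7% of all tested genes. The median change was 0.25 and 0.08 on the log2 scale, where the median of all tested genes was 0.01 and -0.03. The proprotein convertase genes Furin (0.71 and 0.70) and Pcsk5 (0.96 and 1.00) rose. Plat, the gene of tissue plasminogen activator, which cuts the C chain, changed by -0.82 and -0.61, opposite in sign to Pdgfc. The coreceptor gene Nrp1 changed by -0.39 and -0.63. None of the 11 passed at 1 h. This list and those below were written with earlier results of these data known, so the shares describe the lists and do not test them.

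Downstream of the receptors, 7 of 30 tested adaptor and effector genes rose and 5 fell at 10 h in wild-type cells, and 7 rose and 7 fell in labelled knock-out cells. The shares that passed, 40% and 46.7%, stood against 33.7% and 34.7% of all tested genes, and the medians of -0.06 and -0.01 lay near those of all genes. Pik3r1, which encodes the regulatory subunit of phosphoinositide 3-kinase that docks to the receptors, fell most (-2.05 and -1.96), and the docking protein gene Gab1 fell as well (-1.17 and -1.09). Pik3cb, the gene of a catalytic subunit of the same kinase, rose by 1.03 and 1.18. Of 17 negative regulators 6 rose and 1 fell in wild-type cells, and 9 rose and 1 fell in labelled knock-out cells, which is 41.2% and 58.8% of the list, with medians of 0.28 and 0.36. Among them the MAP kinase phosphatase genes Dusp4 (3.26 and 3.28) and Dusp6 (2.17 and 2.33) rose, and Spry2, the gene of an inhibitor of receptor tyrosine kinase signalling, fell (-1.12 and -1.20). None of the genes of these lists passed at 1 h.

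A list of 20 genes known as early PDGF targets in fibroblasts, which other growth factors induce as well, was also followed. Of 19 tested, 6 rose and 0 fell at 1 h in wild-type and 5 rose and 0 fell in labelled knock-out cells, with medians of 0.47 and 0.27. These are 31.6% and 26.3% of the list, where 0.585% and 0.490% of all tested genes passed. The list was written with earlier results of these data known, so its shares are a description and not a test. The genes that rose at 1 h included the transcription factor genes Egr2 (2.54 and 2.33), Klf10 (2.09 and 1.81) and Junb (1.78 and 1.72). At 10 h 12 of 19 rose in wild-type and 16 of 19 in labelled knock-out cells and 0 fell (63.2% and 84.2% of the list), with medians of 1.03 and 1.21. Of all tested genes 33.7% and 34.7% passed at 10 h. Egr2 (3.56 and 3.79), the hyaluronan synthase gene Has2 (3.14 and 3.53) and the cyclooxygenase gene Ptgs2 (2.55 and 2.97) rose most clearly by adjusted p. Whether PDGF itself acted in these cultures was not measured.

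**Figure D5:**
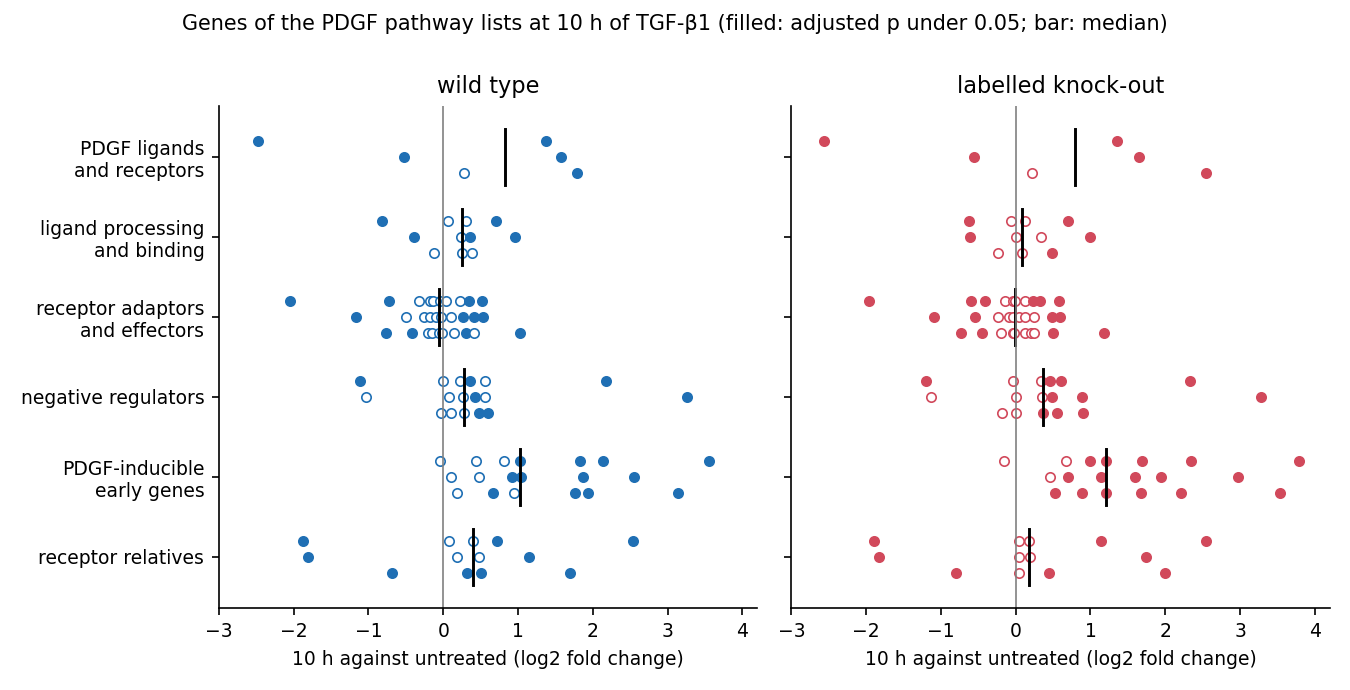
Log2 fold change at 10 h of TGF-β1 against untreated cells (horizontal axis) for each tested gene of the PDGF family and of 5 lists of related genes, in wild-type (left) and labelled knock-out cells (right). Filled points passed the limma test, open points did not, and the black bar is the median of the row. The early genes have medians of 1.03 and 1.21 and the adaptors and effectors of -0.06 and -0.01.

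Among 13 relatives of the PDGF receptors and their ligands, 6 rose and 3 fell at 10 h in wild-type cells, and 5 rose and 3 fell in labelled knock-out cells. The shares were 69.2% and 61.5% of the list, against 33.7% and 34.7% of all tested genes, and the medians 0.40 and 0.18. Vegfa, the gene of the main vascular endothelial growth factor and a structural relative of the PDGFs, rose by 2.54 in each genotype. It was the 1 gene of this list that also rose at 1 h, by 0.81 and 0.76. The VEGF receptor gene Flt1 rose by 1.69 and 2.00, and the ligand gene Vegfd changed by -1.81 and -1.83.

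Marker lists of the cells that carry each receptor were followed at 10 h beside the receptor genes. Of 14 fibroblast markers 4 (28.6%) fell in wild-type cells and 3 (21.4%) in labelled knock-out cells and none rose, shares below the 33.7% and 34.7% of all tested genes that passed. The mesenchymal transcription factor genes Prrx1 (-1.80 and -1.82) and Twist1 (-1.11 and -1.42) were among them. The mean of the list ran from 11.55 to 11.73 in untreated wild-type cells and from 11.13 to 11.18 at 10 h, and in labelled knock-out cells from 11.23 to 11.58 and from 10.93 to 11.19. Of 11 tested pericyte and smooth muscle markers 5 rose in wild-type cells (45.5%), and 5 rose and 2 fell in labelled knock-out cells (63.6%), where Notch3 changed by -0.77 and the potassium channel gene Kcnj8 by -0.58. The proteoglycan gene Cspg4, which encodes NG2, rose by 2.60 and 2.52, and the adhesion molecule gene Mcam by 1.56 and 1.59. Their part in the Pdgfra and Pdgfrb values was not tested.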

How the data were processed

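Each deposited value is a log2 summary of 1 probe set on 1 array, and per the submitters' processing notes the authors used RMA (version not given in the sources used here). This method subtracts background and makes arrays alike in distribution, which can hide a shift of all genes. The values ran from 2.49 to 14.47 with array medians of 4.74 to 4.81 and were used as deposited. Depth does not apply to arrays, and their number limits the precision: for the median gene the 95% interval reached 0.27 to each side.

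Of 45101 probe sets 34958 had a single symbol in the platform annotation, 932 several and 9211 none listed, and 34754 of the first matched RefSeq (GRCm38.p6) by Entrez number. A gene was tested if its brightest set exceeded the 40th percentile of the array (4.16 to 4.25) on at least 3 arrays. Differences were fitted with limma 3.58.1 in R 4.3.3, with 1 mean for each of 6 groups, 12 residual degrees of freedom and Benjamini-Hochberg adjustment over 13679 genes. Other probe sets were tested in a like fit over 29020 sets. The fit was tested on simulated data. No column lacked a sample.

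The 6 genes, the lists and the comparisons were chosen with earlier results of these data known. Besides the 6 genes, the text names Nfic, up to 3 genes per pathway list, time and genotype with the smallest adjusted p among those that passed, the 3 genes closest to each member by Pearson r, and, chosen after their values were seen, single markers and 3 genes of 1 array. Some list genes are not reported here. Within a genotype the embryo number pairs arrays, per the labels: deviations from the group means correlated at 0.592 to 0.763 between untreated and 1 h arrays. Between untreated and 10 h arrays they correlated at 0.282 to 0.388 in labelled knock-out embryos and at 0.487, -0.064 and -0.204 in wild-type embryos 1, 2 and 3, so changes of single wild-type embryos at 10 h rest on the labels. Across genotypes the same number stands for separate embryos. For numbers 1, 2 and 3 the correlation was 0.346, 0.541 and 0.073 without TGF-β1. After 1 h it was 0.472, 0.487 and 0.104, the one condition where each exceeded 0.1, and after 10 h it was 0.135, -0.198 and -0.024. A fit blocked on this number is an alternative. Alternatives were the filter, the probe-set rule, normalization, the fit, the embryo block and leaving out each embryo.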

Additional observations from a re-analysis of the deposited data

How the results depend on the processing

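Of 1116 values of single genes under alternatives, 15 lost and 6 gained a call, 38 values that never passed changed sign within -0.15 to 0.17, and no called value reversed. Pdgfa, Pdgfc and Pdgfra kept direction and call at 10 h against untreated cells in both genotypes under all 16 alternatives run. The count of members called at 10 h in wild-type cells was 5, and 3 to 5 with each embryo left out, 3 without wild-type embryo 3, where Pdgfb and Pdgfd were lost. By probe set it was 9, and 5 to 9 with each embryo left out. The call of Pdgfd in wild-type cells at 10 h was also lost after a further quantile normalization (-0.45, adjusted p = 0.0500) and with the groups of the comparison alone (adjusted p = 0.0662). At 10 h against 1 h Pdgfd lost its call with the mean of all probe sets in wild-type (-0.25, adjusted p = 0.103) and labelled knock-out cells (-0.19, adjusted p = 0.217), and Pdgfb lost it in labelled knock-out cells with the groups of the comparison alone (adjusted p = 0.100). The cause of these losses was not tested.

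With embryo as a fixed replicate block, 6 of 6 members were called at 10 h in wild-type cells and 5 of 6 in labelled knock-out cells, against 5 and 5 without it. As a random block, with a correlation of 0.183 between arrays of an embryo, 5 and 5 were called. The fixed block called 5492 genes in all at 10 h in wild-type cells and the random block 5446, against 4614 without a block. With the embryo number as a block across genotypes, 0 members were called in labelled knock-out against wild-type cells; Pdgfra came nearest, with -0.75 ± 0.09 in embryo means (adjusted p = 0.0764) and an adjusted p of 0.224 at 1 h. Leaving out the 10 h array of labelled knock-out embryo 1 was an alternative chosen after seeing the data.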
